A study of Homo sapiens with 2 samples.

Results

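Contact domains of up to 100 kb were the shortest class of domain listed in an in situ Hi-C map of HEK293T cells. They were chosen by their length in the deposited domain table, as autosomal domains whose end minus start was at most 100 kb and that held no smaller listed domain. This gave 397 domains, 10.3% of the 3845 listed in all and 11.3% (95% Wilson interval 10.3 to 12.4%) of the 3509 autosomal domains that held no smaller one. The 397 are called short domains here. All autosomal domains of at most 100 kb qualified, since none of them held a smaller one. The other 3112 domains without a smaller one inside them were set beside them as 1214 domains of over 100 to 200 kb and 1898 of over 200 kb.

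HEK293T is a human embryonic kidney line that expresses the SV40 large T antigen and carries extra copies of several chromosomes. The series had 1 group, HEK293T cells crosslinked with formaldehyde and cut with the restriction enzyme MboI, with 2 libraries labelled as replicates and no second condition. Every table described both libraries together, so no value has a replicate error and no difference below was tested. Intervals on shares and medians treat domains as independent and cover counting error only, and neighbouring domains share their surroundings. The number of contacts per library is unknown, and the observed contacts in loop pixels were the only measure of depth.

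In situ Hi-C joins pieces of DNA that were close in the intact nucleus and sequences the junctions. A contact domain is a stretch of chromosome whose parts touch each other more often than they touch the sequence on either side. Many such domains are formed when the cohesin ring extrudes a loop of chromatin until it stops at CTCF, an insulator protein, and a loop peak at the corner of a domain is the usual mark of this. At a larger scale, chromatin sorts into A compartments, which are gene-rich and active, and B compartments, which are gene-poor and mostly silent.

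Length chose the members, and all tables came from the same contacts. The caller's own values are therefore described, with nothing rested on them. Compartment scores and loops did not enter the choice but were read from the same map.

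The short domains were packed against the upper end of their range. Lengths ran from 60 to 100 kb with a median of 90 kb. There were 3 domains of 60 kb, 3 of 65 kb, 15 of 70 kb, 36 of 75 kb, 45 of 80 kb, 42 of 85 kb, 102 of 90 kb, 53 of 95 kb and 98 of 100 kb. The number thus grew steeply above 65 kb, and 90 and 100 kb were the commonest lengths. Just outside the limit there were 53 domains that were 5 kb longer than it and 85 of 110 kb. Together the short domains covered 35.3 Mb, 3.14% of the 1126 Mb in autosomal domains without a smaller one.

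Lengths that were multiples of 10 kb were overrepresented. They made up 263 of the 397 short domains (66.2%, Wilson interval 61.5 to 70.7%), 56.2% (53.4 to 58.9%) of the domains of over 100 to 200 kb and 50.8% (48.5 to 53.0%) of those over 200 kb. The ends themselves showed no such preference, with 49.4% of starts and 50.4% of ends of short domains at a multiple of 10 kb. The preference was thus in the distance between the ends and not in where they lay on the 5 kb grid. The length limit of 100 kb falls on one of the overrepresented lengths, and 98 of the 263 short domains had exactly that length. Lengths of short domains also began at a multiple of 10 kb, namely 60 kb. Their range thus held more multiples of 10 kb than odd multiples of 5 kb. The higher share in short domains is therefore partly set by the limit. Whether the preference itself was stronger than in the next length class was not tested.

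**Figure D1:**
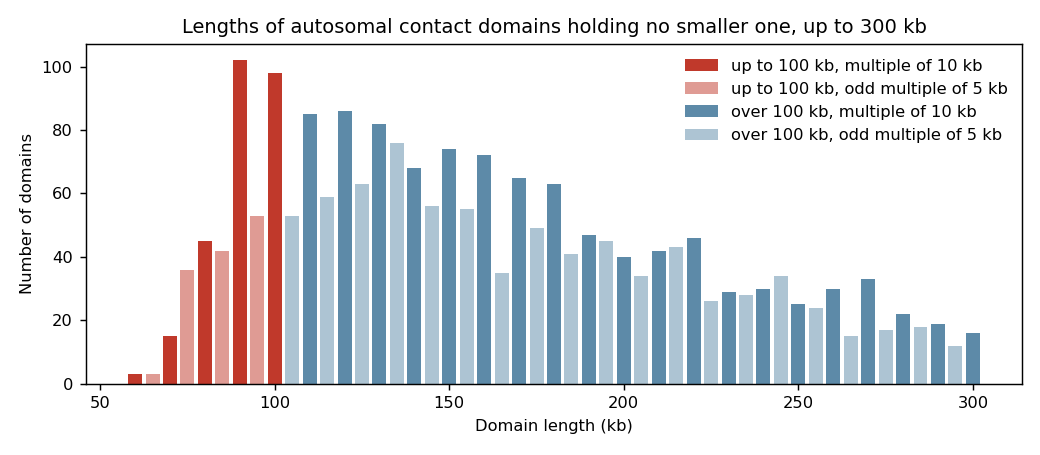
Number of autosomal contact domains holding no smaller one (vertical axis) at each length in kb up to 300 kb (horizontal axis), in red up to 100 kb and in blue above, with odd multiples of 5 kb in pale colour. Among the red bars the tallest stand at 90 and 100 kb, with 102 and 98 domains, on either side of 53 at 95 kb.

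Short domains were found on all 22 autosomes but made up very different shares of the domains there. Chromosome 19 had the highest share, with 15 of 55 domains (27.3%, Wilson interval 17.3 to 40.2%). Chromosome 17 followed with 35 of 153 (22.9%, 16.9 to 30.1%). Both are known as gene-rich chromosomes, and their intervals lay above the 11.3% of all autosomes. The lowest share was 9 of 175 (5.14%, 2.73 to 9.48%) on chromosome 7, whose interval lay below it. The intervals of the other 19 autosomes included it, among them chromosome 21 with only 2 short domains of 30.

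Per megabase of valued sequence, chromosome 17 stood highest with 0.438 short domains. Chromosome 19 had 0.259, chromosome 10 had 0.231, chromosome 6 had 0.201 and chromosome 1 had 0.200. Chromosome 21 had 0.0526 and chromosome 7 had 0.0570. Chromosomes 17 and 19 reached their high shares in different ways. Longer domains were as dense on chromosome 17 (1.48 per Mb) as on chromosome 1 (1.46 per Mb), whereas on chromosome 19 they were sparse (0.690 per Mb), so that its share of short domains was high over few domains.

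**Figure D2:**
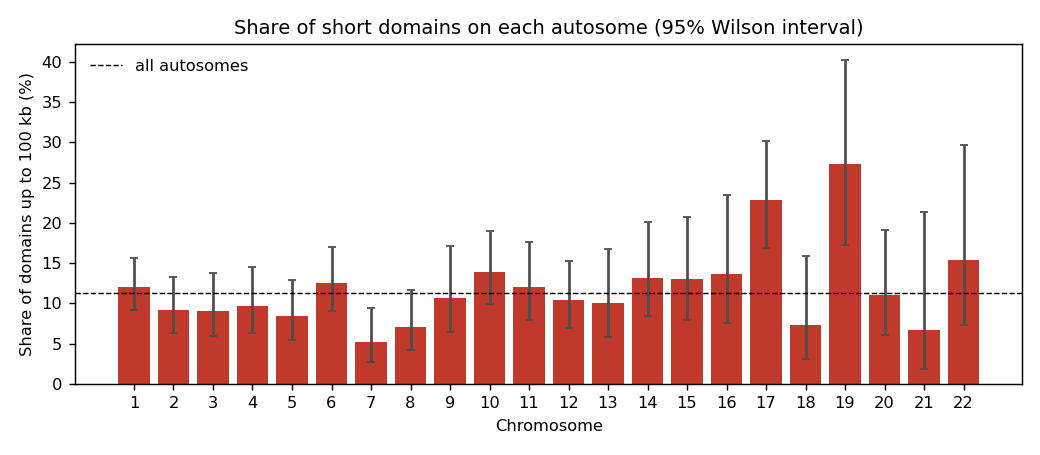
Share of domains up to 100 kb in percent (vertical axis) among the domains holding no smaller one on each autosome (horizontal axis). Bars are shares, whiskers 95% Wilson intervals and the dashed line the 11.3% of all autosomes, which chromosomes 17 and 19 exceed with their whole interval.

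Most short domains stood alone among longer ones. Of the 397, 99 (24.9%, Wilson interval 20.9 to 29.4%) had another short domain as the next listed domain on either side. The same held for 21.0% of all 3509 domains, for 23.0% (20.7 to 25.4%) of those of over 100 to 200 kb and for 19.0% (17.3 to 20.8%) of those over 200 kb. The share for short domains was close to that of the next length class. A short neighbour no more than 100 kb away was found for 46 short domains (11.6%), against 9.46% of all domains.

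The distance to the nearest other short domain had a median of 1440 kb, with quartiles at 445 and 3485 kb and a maximum of 32690 kb. For 78 short domains it was over 5 Mb. The nearest domain of any length lay much closer, at a median of 45 kb (interval 35 to 60 kb) from short domains and 35 kb (35 to 40 kb) from those of over 100 to 200 kb. One end of a short domain came within 10 kb of a neighbouring domain's end in 76 cases (19.1%, 15.6 to 23.3%), against 16.6% of all domains. Both ends did so in 4 cases (1.01%), against 0.826% of all domains. Short domains therefore had neighbours at about the usual distance, and those neighbours were mostly longer.

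Runs of neighbouring short domains were brief. There were 298 single short domains, 38 pairs, 5 runs of 3 and 2 runs of 4. Both runs of 4 lay on chromosome 17, within 2.19 Mb. The earlier run had domains at 39890001 to 39965000 (75 kb, domain score 1.18), 40175001 to 40265000 (90 kb, 1.09), 40470001 to 40560000 (90 kb, 1.04) and 40725001 to 40825000 (100 kb, 1.12). These were separated by 210, 205 and 165 kb, and a loop joined the ends of the one at 40175001. The later run had domains at 41470001 to 41560000 (90 kb, 1.41), 41655001 to 41750000 (95 kb, 1.35), 41760001 to 41845000 (85 kb, 1.32) and 42010001 to 42080000 (70 kb, 0.993). Here the gaps were 95, 10 and 165 kb, and each of the 4 had a loop at both ends. The later run thus held closely set domains with loops, 3 of them with scores far above the median of short domains given below.

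By fixed bins of 1 Mb, 349 of 2732 valued autosomal bins (12.8%) held the midpoint of a short domain. A single one lay in 307 bins, a pair in 36 and 3 in 6. The 5 bins named by the rule, the earliest in genome order of those with 3, lay on chromosome 10 (71 to 72 Mb), chromosome 12 (56 to 57 Mb), chromosome 14 (35 to 36 Mb) and, side by side, chromosome 17 (40 to 41 Mb and 41 to 42 Mb). At 40 to 41 Mb of chromosome 17 these 3 were the only domains without a smaller one. The bin on chromosome 10 had 5 such domains, and its short ones were 71170001 to 71270000 (score 1.18), 71405001 to 71475000 (0.918) and 71725001 to 71815000 (0.810). The bin on chromosome 12 had 4, with short ones at 56125001 to 56205000 (0.985), 56225001 to 56305000 (1.13) and 56890001 to 56980000 (1.36). The bin on chromosome 14 also had 4, with short ones at 35135001 to 35235000 (0.948), 35345001 to 35445000 (0.888) and 35910001 to 36000000 (1.10). All 5 bins had a positive compartment score.

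A minority of short domains lay within a longer listed one. This was so for 66 of 397 (16.6%, Wilson interval 13.3 to 20.6%), against 7.75% of all domains, 10.4% (8.79 to 12.2%) of those of over 100 to 200 kb and 4.21% (3.40 to 5.22%) of those over 200 kb. A short domain can fit within more of the listed domains than a long one, so this order is partly set by length itself. The 66 lay in 63 smallest outer domains of 135 to 660 kb, with a median of 265 kb, and took up a median of 32.7% of them. An outer domain held at most 2 short ones, which 5 of them did. In 32 cases 1 end of the short domain was within 10 kb of an end of the outer domain, and in 34 it was not. The score of the short domain was lower than that of its outer domain in 49 of the 66. Short domains scored lower than both longer classes in general, as given below, and longer nested domains were not counted in this way. Nested short domains had a median score of 1.11, against 1.07 for the 331 that were not nested. Their uVarScore and lVarScore were lower, with medians of 0.0363 and 0.0337, against 0.0431 and 0.0450 in those not nested.

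Short domains were concentrated in bins of high compartment score. The midpoint bin was positive for 296 of 397 (74.6%, Wilson interval 70.1 to 78.6%), against 64.2% of all domains, 70.4% (67.8 to 72.9%) of those of over 100 to 200 kb and 58.1% (55.8 to 60.3%) of those over 200 kb. The intervals of short domains and those of over 100 to 200 kb overlapped, and both lay above that of domains over 200 kb. Which sign marks the A compartment is unstated in the sources used here and could not be settled without genes placed on this build.

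The density of short domains was 0.215 per Mb in positive bins and 0.0748 per Mb in negative bins. The ratio of these was 2.87 (interval 2.29 to 3.60). For domains of over 100 to 200 kb the ratio was 2.33 (2.06 to 2.64), and for those over 200 kb it was 1.36 (1.24 to 1.49). On chromosomes 5, 11, 13, 14 and 22 a single bin carried over 40% of the squared score, so their sign is a poor guide to compartment. Without them the 3 ratios were 3.55 (2.74 to 4.60), 2.82 (2.45 to 3.24) and 1.47 (1.33 to 1.63). On all 17 remaining autosomes short domains were denser in positive bins, and so were longer domains with both classes pooled. The direction was thus shared with longer domains. It was narrowest for them on chromosome 16, where 41.3% of longer domains lay in positive bins and 40.7% of bins were positive. On chromosome 21 it rested on 1 short domain in bins of each sign. Chromosome 4, whose sign follows the chromosome arms, had 0.113 against 0.0816 short domains per Mb. Without chromosome 4 as well, the ratio for short domains was 3.87 (2.97 to 5.06). For short domains chromosome 22, with equal densities of 0.167 per Mb, was the exception among all 22.

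Because the scale of the scores may differ between chromosomes, bins were also ranked within each chromosome. The midpoint bin of a short domain stood at a median percentile of 71.0 (interval 66.9 to 74.8), against 67.4 (65.4 to 68.9) for domains of over 100 to 200 kb and 57.3 (55.1 to 58.9) for those over 200 kb. In 5 groups of 20% of the bins, from the lowest ranks to the highest, short domains numbered 21, 47, 77, 107 and 145. Their density was 0.0391, 0.0859, 0.141, 0.196 and 0.261 per Mb over the same groups, so that it was greater at each step. The highest group thus held 36.5% (Wilson interval 31.9 to 41.4%) of short domains, against 26.4% of all domains, and the lowest 5.29% (3.49 to 7.95%), against 9.55%. Domains of over 100 to 200 kb had 0.164 per Mb in the lowest group, 0.656 in the fourth and 0.647 in the highest. Domains over 200 kb had 0.421 per Mb in the lowest group, 0.828 in the fourth and 0.760 in the highest. The density of both longer classes was thus slightly lower in the highest group than in the fourth, where short domains were denser in the highest. Without chromosome 4 and the 5 chromosomes carried by 1 bin, short domains had 0.211 per Mb in the fourth group and 0.311 in the highest. Domains of over 100 to 200 kb then also had their greatest density in the highest group, with 0.697 and 0.762 per Mb, and only those over 200 kb were less dense there, with 0.856 and 0.801 per Mb. Short domains made up 6.27% of domains in the lowest group and 15.7% in the highest.

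**Figure D3:**
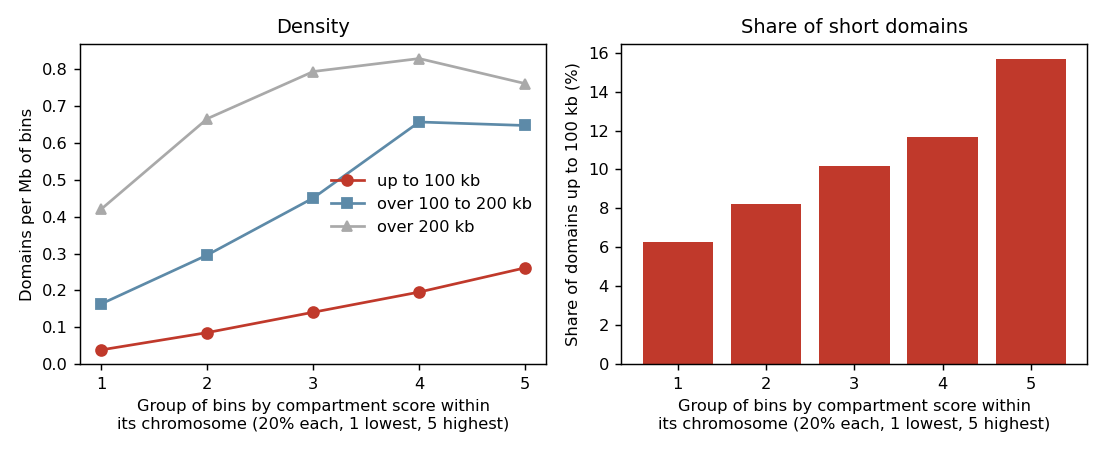
Left, domains per Mb (vertical axis) in 5 groups of bins by rank of compartment score within the chromosome (horizontal axis, lowest to highest), with a line for each length class. Right, the share of domains up to 100 kb in percent in the same groups, which goes from 6.27% in the lowest to 15.7% in the highest.

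The share of short domains in positive bins exceeded that of longer domains on 17 of 22 autosomes. It was 88.9% against 54.8% on chromosome 7, 8 of 10 against 41.3% on chromosome 16 and 88.2% against 66.4% on chromosome 6. On chromosome 9 all 14 short domains were in positive bins, against 72.6% of its longer ones. On chromosome 10 the order was the other way, at 71.0% against 72.4%. It was so too on chromosome 21, with 1 of 2 against 57.1%, and on chromosome 22, with 2 of 6 against 36.4%. On chromosome 13 all domains of both sets were in positive bins. On chromosome 4, whose sign follows the chromosome arms, the shares were 16 of 20 and 81.7%. Several of these percentages rest on fewer than 15 short domains.

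Outside the 5 chromosomes with scores carried by 1 bin, the short domains in the bins of highest score were all on chromosome 19. They lay at 47260001 to 47350000 (90 kb, compartment score 0.176), 4720001 to 4795000 (75 kb, 0.175) and 46780001 to 46880000 (100 kb, 0.170). The domain at 46900001 to 46990000 (90 kb) shared the bin of the last of these and so had the same score. The lowest compartment scores were those of 25565001 to 25655000 of chromosome 17 (90 kb, -0.186), 49250001 to 49345000 of chromosome 17 (95 kb, -0.167) and 28130001 to 28210000 of chromosome 21 (80 kb, -0.146). The domain on chromosome 17 at 25565001 also had the lowest domain score of all short domains, 0.754. That on chromosome 21 scored above the upper quartile of short domains, so low compartment scores and low domain scores did not always go together. Among short domains the median domain score was 1.07 in positive bins and 1.08 in negative bins.

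The share of short domains near the ends of the valued sequence of a chromosome was close to that of all domains. Midpoints within 5 Mb of the first or last valued bin made up 3.78% (Wilson interval 2.30 to 6.14%) of short domains, against 4.30% of all domains.

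The caller gave short domains lower and more uniform values. Their domain score, the second column of that name, had a median of 1.07 (interval 1.05 to 1.10) with quartiles at 0.978 and 1.19. The median was 1.23 (1.22 to 1.25) for domains of over 100 to 200 kb and 1.21 (1.19 to 1.23) for those over 200 kb. Scores of short domains ran from 0.754 to 1.62, whereas those of domains over 200 kb ran from 0.222 to 1.86. Relative to the quartiles of all domains, 157 short domains (39.5%) were below the lower one of 1.03 and 15 (3.78%) above the upper one of 1.39. Short domains had the lower median on 21 of 22 autosomes, the exception being chromosome 16 with 1.18 against 1.15 for its longer domains.

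Across the length limit the score moved smoothly. The median was 0.992 for the 57 domains of 60 to 75 kb, 1.08 for the 87 of 80 and 85 kb, 1.08 for the 102 of 90 kb, 1.13 for the 53 of 95 kb and 1.12 for the 98 of 100 kb. Just outside, it was 1.14 for the 53 that were 5 kb over the limit and 1.17 for the 85 of 110 kb. The limit therefore marks no step in the score. Over the short domains score and length had a Spearman correlation of 0.233 (n = 397 domains of 1 map), given as a description.

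The 6 highest scoring short domains were spread over 6 chromosomes. The highest was 38725001 to 38825000 of chromosome 19 (100 kb, score 1.62). It was followed by 188360001 to 188440000 of chromosome 2 (80 kb, 1.55), 59935001 to 60025000 of chromosome 10 (90 kb, 1.53) and 173750001 to 173845000 of chromosome 5 (95 kb, 1.51). The last of them were 29105001 to 29200000 of chromosome 1 (95 kb, 1.48) and 115800001 to 115890000 of chromosome 7 (90 kb, 1.47). Of these 6 domains, those on chromosomes 19, 2, 5 and 7 had a loop at both ends. The compartment score of the midpoint bin was negative for those on chromosomes 19, 2, 10 and 7. High scores among short domains were thus found in bins of either sign.

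The 6 lowest scoring had no loop at both ends. After the one on chromosome 17 (0.754) came 108975001 to 109060000 of chromosome 2 (85 kb, 0.769), 111425001 to 111510000 of chromosome 2 (85 kb, 0.799) and 71725001 to 71815000 of chromosome 10 (90 kb, 0.810). The others were 126015001 to 126095000 of chromosome 8 (80 kb, 0.816) and 116470001 to 116550000 of chromosome 10 (80 kb, 0.825). Their upSign and loSign lay between 0.500 and 0.617. All 3 domains of the shortest length, 60 kb, had both signs at 0.5, and their scores were 0.989 on chromosome 19 (45925001 to 45985000), 0.898 on chromosome 9 (132490001 to 132550000) and 0.873 on chromosome 5 (36880001 to 36940000). The first and second of these had a loop at both ends.

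The 4 further columns are named for the upper and lower side of a domain, uVarScore and upSign for one and lVarScore and loSign for the other. Their definition is unstated in the sources used here. The median uVarScore was 0.0422 in short domains, 0.0597 in those of over 100 to 200 kb and 0.111 in those over 200 kb. The median lVarScore was 0.0433, 0.0584 and 0.112 in the same order of length. Over all 3509 domains length and uVarScore had a Spearman correlation of 0.840, and within the short domains one of 0.217, both as descriptions. These columns thus followed length closely, and the low values of short domains go with their choice by length.

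The sign columns were lower in short domains than in either longer class. The median upSign was 0.578, against 0.645 in domains of over 100 to 200 kb and 0.611 in those over 200 kb. The median loSign was 0.589, against 0.643 and 0.619. No short domain had a value below 0.5, and neither had any of over 100 to 200 kb. Of the short domains 58 had at least 1 of the signs at exactly 0.5, among them 10 with both. An upSign of exactly 0.5 was listed for 32 of 397 short domains, 13 of 1214 of over 100 to 200 kb and 4 of 1898 over 200 kb. For loSign the numbers were 36, 16 and 2. Of all autosomal domains 591 had a sign below 0.5, and the shortest of these was 305 kb long. Values below 0.5 were thus listed only for autosomal domains of at least that length. At the other end, 81 short domains had both signs above 0.6, which was not counted in the longer classes.

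Neither side was the higher in a clear majority. Among short domains upSign was the higher in 168, loSign in 183, and they were equal in 46. The uVarScore was the higher in 198 of 397. The sides of a short domain were related only loosely, with a Spearman correlation of 0.205 between upSign and loSign and 0.524 between uVarScore and lVarScore. In domains of over 100 to 200 kb these were 0.152 and 0.573, so the loose relation was shared with the next length class. In domains over 200 kb they were 0.323 and 0.908. All are correlations over domains of 1 map, given as descriptions.

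**Figure D4:**
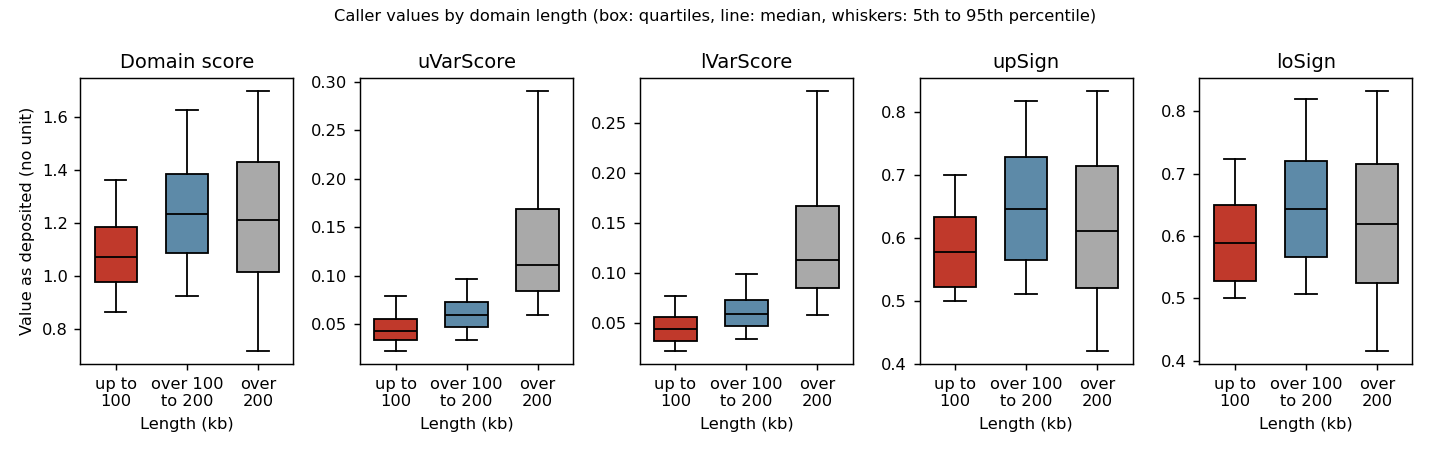
Values of the 5 caller columns as deposited (vertical axes, no unit) by length class (horizontal axes). Boxes span the quartiles with the median as a line, and whiskers run from the 5th to the 95th percentile. Short domains have the lowest median in every panel, with a median domain score of 1.07 against 1.23 and 1.21.

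Within 50 kb, short domains had a loop at both ends less often than the next length class. With each anchor centre within 50 kb of its end, 65 of 397 (16.4%, Wilson interval 13.1 to 20.3%) had one, against 24.1% of all domains. The share was 27.1% (24.7 to 29.7%) in domains of over 100 to 200 kb and 23.8% (21.9 to 25.7%) in those over 200 kb, and neither interval overlapped that of short domains. With 25 kb the share was 16.1% (12.8 to 20.1%), against 21.6% of all domains, 303 of 1214 (22.6 to 27.5%) in those of over 100 to 200 kb and 20.7% (18.9 to 22.5%) in those over 200 kb. With 10 kb it was 11.1% (8.36 to 14.6%), against 13.5% of all domains, 16.2% (14.3 to 18.4%) in those of over 100 to 200 kb and 12.2% (10.8 to 13.8%) in those over 200 kb. The interval of short domains thus overlapped that of domains over 200 kb at 25 and at 10 kb, and at 10 kb also that of domains of over 100 to 200 kb. The gap to either class therefore depended on the fixed tolerance, which is a smaller part of a longer domain. With a tolerance of 0.2 of the length, the share was 14.4% (11.2 to 18.1%) in short domains. It was 25.4% (23.0 to 27.9%) in those of over 100 to 200 kb and 475 of 1898 (23.1 to 27.0%) in those over 200 kb. Under this tolerance neither interval overlapped that of short domains.

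The shortest autosomal loop listed joined anchors 35 kb apart. Nearly all loops at short domains sat close to the ends, since 64 of the 65 domains met 25 kb and 44 met 10 kb. One domain had a pair of loops, which gives 66 different loops, 4.49% of the 1471 autosomal ones. None of them also met the ends of another listed domain within 50 kb. The loop was shorter than its domain in 43 of 66 cases, longer in 11 and equal in 12, with a median difference of -10 kb. This difference was not counted in the longer classes. The centre of the start anchor lay inside the domain in 49 cases and outside in 10, and that of the end anchor inside in 33 and outside in 15. An anchor pixel that begins exactly at the domain start thus counts as inside, and one that begins at the end as outside. Start anchors leaned the same way in the longer classes. They were inside in 248 and outside in 44 of 332 pairs at domains of over 100 to 200 kb, and 357 and 47 of 454 over 200 kb. End anchors were inside in 160 and outside in 100 of these pairs at domains of over 100 to 200 kb, and 260 and 108 over 200 kb.

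**Figure D5:**
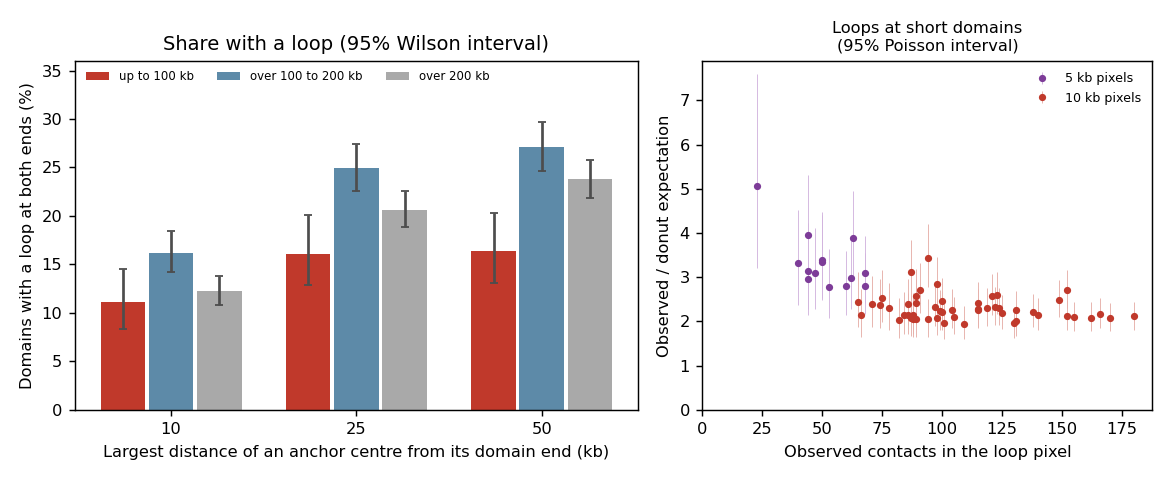
Left, share of domains with a loop at both ends in percent (vertical axis) for 3 tolerances in kb (horizontal axis) and 3 length classes, with 95% Wilson intervals. Right, enrichment over the donut expectation (vertical axis) against observed contacts (horizontal axis) for the 66 loops at short domains, with 95% Poisson intervals and coloured by pixel size, from 23 contacts at 5.06-fold to 180 contacts at 2.11-fold. All 14 loops in 5 kb pixels have at most 68 contacts.

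Loops at short domains rested on about as many contacts as those at domains of over 100 to 200 kb. The observed count ran from 23 to 180 with a median of 94 (quartiles 71.8 and 122), and the median was 94.5 for 332 loops at domains of over 100 to 200 kb only. Enrichment over the donut expectation, the local background around the pixel, had a median of 2.31-fold (quartiles 2.14 and 2.76). It was 2.45-fold at domains of over 100 to 200 kb and 2.75-fold at those over 200 kb, which had a median of 75.5 contacts. Background contacts are more frequent at short range, so these enrichments are of loops of different distance. With distance capped at 110 kb, the 63 loops at short domains were enriched 2.31-fold in the median with 94 contacts, and the other 114 autosomal loops 2.39-fold with 87.5. Their median distances were 80 and 90 kb, so distance was not fully matched.

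Both values also went with the size of the pixel, since loops were listed at 5 kb or at 10 kb. The 14 loops at short domains in 5 kb pixels had 23 to 68 contacts (median 50) and a median enrichment of 3.12-fold. The 52 in 10 kb pixels had 65 to 180 contacts (median 100.5) and a median enrichment of 2.24-fold. Within 10 kb pixels, the median enrichment was 2.41-fold at domains of over 100 to 200 kb and 2.67-fold at those over 200 kb. Within 5 kb pixels it was 3.39-fold and 3.60-fold. The median of short domains was thus the lowest of the 3 classes at both pixel sizes, but the classes differ in loop distance. With distance capped at 110 kb the medians were closer. In 10 kb pixels they were 2.24-fold at short domains and 2.30-fold for the other loops. In 5 kb pixels they were 3.10-fold and 3.20-fold.

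Of all 177 autosomal loops up to 110 kb, 63 (35.6%, Wilson interval 28.9 to 42.9%) joined the ends of a short domain. A further 67 met the ends of a longer domain within 50 kb, and 47 met no listed domain. Loops of this length were thus divided among short domains, somewhat longer ones and sequence without a listed domain.

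Among short domains with a loop within 10 kb of both ends, 6 had the most contacts. The loop at 174240001 to 174335000 of chromosome 4 had 162 contacts against 77.7 expected (2.08-fold, Poisson interval 1.78 to 2.43). That at 35410001 to 35505000 of chromosome 10 had 155 (2.09-fold, 1.78 to 2.45), and that at 36425001 to 36505000 of chromosome 5 had 152 (2.12-fold, 1.80 to 2.49). The 60 kb domain on chromosome 9 (132490001 to 132550000) had a loop of 140 contacts over 50 kb (2.14-fold, 1.80 to 2.53). The loop at 48570001 to 48665000 of chromosome 1 had 131 (2.26-fold, 1.89 to 2.69), and that at 117785001 to 117875000 of chromosome 6 had 130 (1.95-fold, 1.63 to 2.32). All 6 were in 10 kb pixels, where the median contact count was higher than in 5 kb pixels. Domain scores of these 6 ran from 0.898 to 1.22, on either side of the median of short domains.

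Even so, short domains with a loop at both ends scored higher as a set. Their median score was 1.21 (interval 1.15 to 1.27, 65 domains), against 1.06 (1.04 to 1.07) for the 332 without. In domains of over 100 to 200 kb the medians were 1.37 with a loop and 1.18 without, and in those over 200 kb 1.42 and 1.15. Both values came from a single pooled contact map and are not independent. The median length was 90 kb in both sets of short domains. The share in positive bins was 78.5% with a loop and 73.8% without.

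Listed loop anchors lay near the ends of short domains about as often as near those of all domains. An anchor of any loop lay within 10 kb of either end in 125 of 397 (31.5%, Wilson interval 27.1 to 36.2%), against 30.7% of all domains, and the other 272 had none within that distance. In 49 (12.3%) there was an anchor at each end, against 14.5% of all domains. In 57 there was an anchor at 1 end only and no loop joining both ends within 50 kb. Another 5 had an anchor at each end belonging to loops that ran elsewhere.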

How the data were processed

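In situ Hi-C of HEK293T cells (2 libraries) came as 3 deposited tables with no column for either library. FastQC 0.11.7, BWA 0.7.8 and Picard, and the build hg19, are named per the submitters' processing notes, with no roles. The deposited compartment table gives a score per 1 Mb bin, and the deposited domain table, on 5 kb bins, the caller's scores per domain. HiCCUPS at 5 and 10 kb gave the loops, by the name of the deposited table. The count of contacts observed in a loop pixel and the signal expected from the surrounding donut were used, both named per the file headers. The sources used here do not state the domain caller, the compartment method or how replicates were pooled.

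A domain took the compartment bin of its midpoint. Neighbours were ordered by midpoint among autosomal domains without a smaller one. A loop met a domain when both anchor centres lay within 50 kb of its ends. Loop distances are start to start, and positions count from 1. Wilson, exact Poisson and order-statistic (for medians) intervals are at 95%, computed with Python 3.11.15, pandas 2.3.3 and scipy 1.17.1. Interval and matching functions were tested on simulated data with known answers. The members, classes and measures were chosen with earlier results of these data known. Regions were named by rule: the 6 highest and 6 lowest domain scores, up to 4 of the shortest, the 6 fullest loops within 10 kb, the 5 fullest bins, the longest runs and the 3 highest and lowest compartment scores. No hg19 genome or annotation was used, so no gene or sequence is given and the planned CTCF motif search was not run.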

Additional observations from a re-analysis of the deposited data

Results flagged for a closer look

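Chromosome X, which the comparisons did not use, held 12 short domains. They were 13.3% (95% Wilson interval 7.79 to 21.9%) of its 90 domains without a smaller one. Their density was 0.0795 per Mb, against 0.145 per Mb on the autosomes. Of the 12, 3 lay in positive bins and 9 in negative bins, where 29 of 151 valued bins were positive. Their domain scores ran from 0.862 to 1.38 with a median of 1.06, and 3 had a loop at both ends within 50 kb.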

How the results depend on the processing

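Of 23 alternatives over 7 results, 13 stayed within the interval of the reported value or, for the count, within 1.5 times it. A turn of direction was checked only for the density ratio of positive over negative bins, and none was found there. The number of short domains was 102 with a limit of 80 kb and 680 with one of 120 kb, against 397, and the median score was 0.999 and 1.11 under the same limits. The share next to another short domain was 7.84% and 40.9% under them, since the limit sets how many short neighbours exist, and 11.6% with neighbours within 100 kb. The share in positive bins was 85.9% without bins under the median absolute score, and the density ratio was 3.87 without the 5 chromosomes whose scores 1 bin carries and chromosome 4. The share with a loop at both ends was 11.1% at 10 kb, a stricter form of the same match. The planned motif search was not run. No paired analysis was possible because the tables hold no column for either library, and for the same reason neither library could be left out. Depth per library is unknown. Loops at short domains rest on 23 to 180 contacts each.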
